A study of Mus musculus with 9 samples.

Results

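The lung breaks down inhaled and self-made reactive chemicals with several families of enzymes besides the cytochrome P450 oxidases, and 37 genes of these families were followed here. They comprise 12 glutathione transferases, 7 aldehyde dehydrogenases, 3 flavin monooxygenases, 2 epoxide hydrolases, 3 paraoxonases, 2 carboxylesterases, 2 sulfotransferases, 2 alcohol dehydrogenases, and 4 quinone, carbonyl and aldehyde oxidoreductases. A gene was read from the probe sets whose only symbol in the platform annotation was that gene. All 37 passed the filter on dim probe sets and are among 11984 genes tested, of 18193 genes with a symbol of their own on the array.

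RNA came from whole lungs of female C57BL/6 mice aged 14 weeks, each hybridised to 1 Affymetrix array. Every mouse had received a replication-deficient adenovirus into the trachea 14 days before, so the controls were infected too. The AdV-NULL virus carries no cytokine gene, AdV-IL4 encodes mouse interleukin-4 (IL-4), and AdV-IL4d2 encodes the mouse splice variant IL-4d2, with 3 mice for each virus. The labels name no promoter for the cytokine genes and say nothing about which lung cells took up the virus.

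As background, glutathione transferases join the tripeptide glutathione to electrophiles, aldehyde dehydrogenases oxidise aldehydes such as those from lipid peroxidation, and flavin monooxygenases add oxygen to nitrogen and sulfur atoms. Epoxide hydrolases, paraoxonases and carboxylesterases split epoxides, lactones and esters with water, and sulfotransferases attach sulfate. In the lung many of these enzymes are known from club cells and other epithelium, and some of their genes respond to the oxidant sensor Nrf2, which binds antioxidant response elements.

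The 250 bases upstream of the annotated start, on the gene's own strand, are shown for the 4 genes that fell most with the IL-4 virus by the tests given further on, as the DNA next to the genes that moved together. The sequences are those of RefSeq for GRCm38.p6, at chr6:5193947-5194196 for Pon1, chr3:108017974-108018223 for Gstm1, chr3:107986421-107986670 for Gstm2 (all on the minus strand) and chr1:21240335-21240584 for Gsta3 (plus strand). Capitals mark a match to the antioxidant response element core (TGACNNNGC) in Gsta3. In Gstm1 they mark the STAT6 motif, TTC and GAA separated by 4 bases. Of the 2 annotated promoters of Gstm1, the one shown was picked because it holds a match, and the other held none. STAT6 is the transcription factor that the IL-4 receptor activates.

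Pon1: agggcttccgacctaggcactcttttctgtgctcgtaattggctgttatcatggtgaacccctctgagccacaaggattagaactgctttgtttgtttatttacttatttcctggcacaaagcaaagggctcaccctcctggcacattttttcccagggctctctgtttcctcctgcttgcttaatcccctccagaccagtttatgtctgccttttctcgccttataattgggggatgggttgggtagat

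Gstm1: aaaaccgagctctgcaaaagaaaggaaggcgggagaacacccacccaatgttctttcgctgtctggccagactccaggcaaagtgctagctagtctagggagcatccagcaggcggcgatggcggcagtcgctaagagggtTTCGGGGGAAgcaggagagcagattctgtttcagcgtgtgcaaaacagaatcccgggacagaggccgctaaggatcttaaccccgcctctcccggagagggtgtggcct

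Gstm2: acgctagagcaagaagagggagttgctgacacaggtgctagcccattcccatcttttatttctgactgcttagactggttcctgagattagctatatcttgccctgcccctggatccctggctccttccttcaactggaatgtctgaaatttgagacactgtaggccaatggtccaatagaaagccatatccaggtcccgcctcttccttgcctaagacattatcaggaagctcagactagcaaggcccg

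Gsta3: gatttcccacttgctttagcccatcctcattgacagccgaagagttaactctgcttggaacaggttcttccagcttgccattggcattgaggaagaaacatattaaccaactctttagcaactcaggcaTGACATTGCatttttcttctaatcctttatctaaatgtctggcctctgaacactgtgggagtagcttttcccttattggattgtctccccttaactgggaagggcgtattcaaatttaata

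In windows of 250 bases before to 50 bases after the start, searched on both strands, 30 of the 37 genes had an entry. The antioxidant response element core was found in 6 of these 30 (20%), against 14% of 27025 genes and 12.4% of 32851 promoters in the same table. It began 121 bases upstream of the start in Gsta3, 112 in Aldh1a2, 56 in Mgst1 and 42 in Gstm5, and lay downstream of the start in Pon2 and Pon3. The STAT6 motif was found in 3 of 30 (10%), namely Gstm1, Sult1a1 and Cbr2, against 8.01% of genes and 6.95% of promoters. No window held both motifs. Pon1 and Gstm2 held neither string of letters in this window.

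Several libraries stood apart in their tissue content. The summed signal of 9 skeletal muscle markers was 83043 in control animal 1 and between 740 and 8296 in the other 8 mice. Heart muscle markers summed to 18182 to 37832 in the controls, 7500 to 25142 with AdV-IL4d2 and 1933 to 8866 with AdV-IL4, lowest in IL-4 animal 2. Ciliated cell markers summed to 19261 to 21518, 19500 to 20015 and 9882 to 18130 in the same order, again lowest in IL-4 animal 2. All 7 alveolar type 2 markers on the array were above the array median in all 9 lungs, while none of the 7 hepatocyte markers on the array passed the filter, and Apoa1, Ttr, Fgb, Ahsg and Apoh stayed below the array median in every mouse. The Il4 probe set read 15.8 to 71.6 in the controls, 301 to 379 with AdV-IL4 and 499 to 1172.5 with AdV-IL4d2. The ratio of 3' to 5' probe signal for Gapdh, a measure of RNA integrity, was 0.955 to 1.45 in the controls, 1.545 to 1.80 with AdV-IL4 and 1.35 to 1.57 with AdV-IL4d2. The same ratio for Actb was higher, at 2.28 to 2.88 in the controls, 2.79 to 3.75 with AdV-IL4 and 2.34 to 2.79 with AdV-IL4d2. The part of these differences in the results was not tested.

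With the IL-4 virus 18 of the 37 genes fell and none rose against the control virus, by limma on log2(signal + 16) with Benjamini-Hochberg adjustment over all 23824 tested probe sets and a threshold of 0.05. In the same comparison 6.63% of all tested genes fell and 6.34% rose. At an unadjusted limma p under 0.05, 25 members were lower with IL-4 and 0 higher, 10 lower and 0 higher with IL-4d2, and 19 lower and 0 higher between IL-4 and IL-4d2. All tested genes were not counted at this unadjusted threshold, so these member counts cannot be set against a general rate. Differences of the 37 genes ran from -2.01 for Pon1 to 0.16 for Pon2 on the log2 scale, with a median of -0.45, beside -0.02 for all tested genes, and 34 were below 0. For 22 genes every IL-4 mouse lay below every control mouse, as for 17.0% of all tested genes. Without control animal 1 and IL-4 animal 2 together, 12 genes fell and 1, Gsto1, rose. Of the 11984 tested genes 2.72% then fell and 332 rose. Over each single array left out, 14 to 22 genes fell, beside 3.27% to 5.61% of all tested genes.

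In these bulk samples, fewer cells of a type and less RNA per cell cannot be told apart. The deposited scaling was taken to give each array the same average, which bears on the directions. Scaled to the hybridisation control transcripts instead, the median of all tested genes was -0.45 and 33 members fell, beside 34.1% of all tested genes. Scaled to the poly-A control transcripts that median was -0.78 and all 37 fell, beside 78.4% of all tested genes. Relative to that shift, the members' median was -0.43 as deposited and -0.44 and -0.45 with these scalings. The labels name no batch. The p-values set each difference against the spread between these mice within groups, with 1 array for each mouse.

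**Figure D1:**
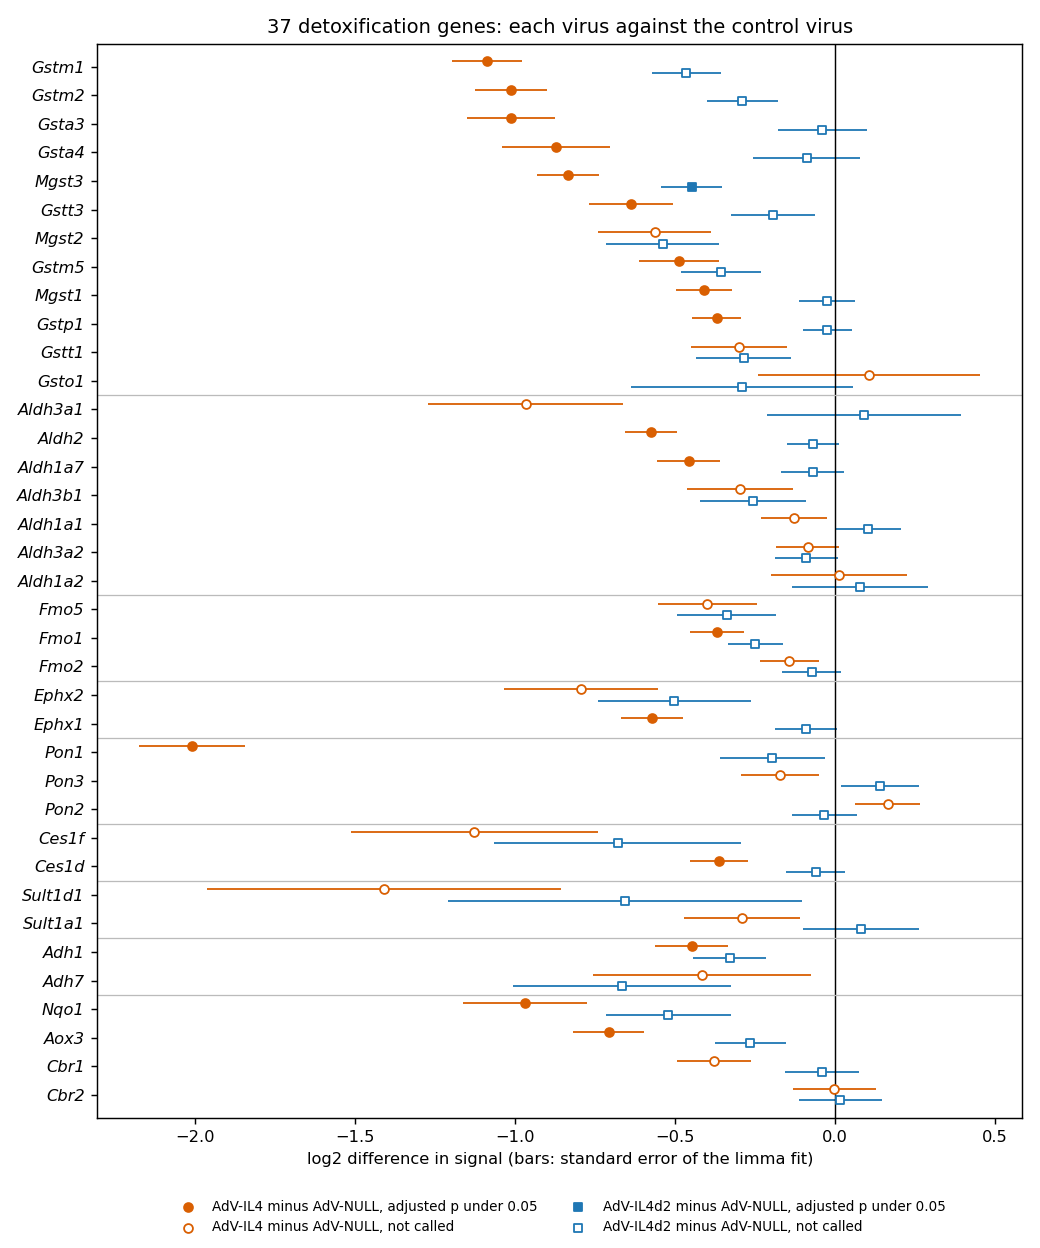
Log2 difference in signal from the control virus for each of the 37 genes, grouped by enzyme class, with AdV-IL4 as circles and AdV-IL4d2 as squares and bars for the standard error of the fit over 3 mice a group. Filled symbols passed an adjusted p of 0.05; 18 circles and 1 square are filled, all of them below 0 at the deposited scaling and with both control-transcript scalings, with which the square is not called.

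**Figure D2:**
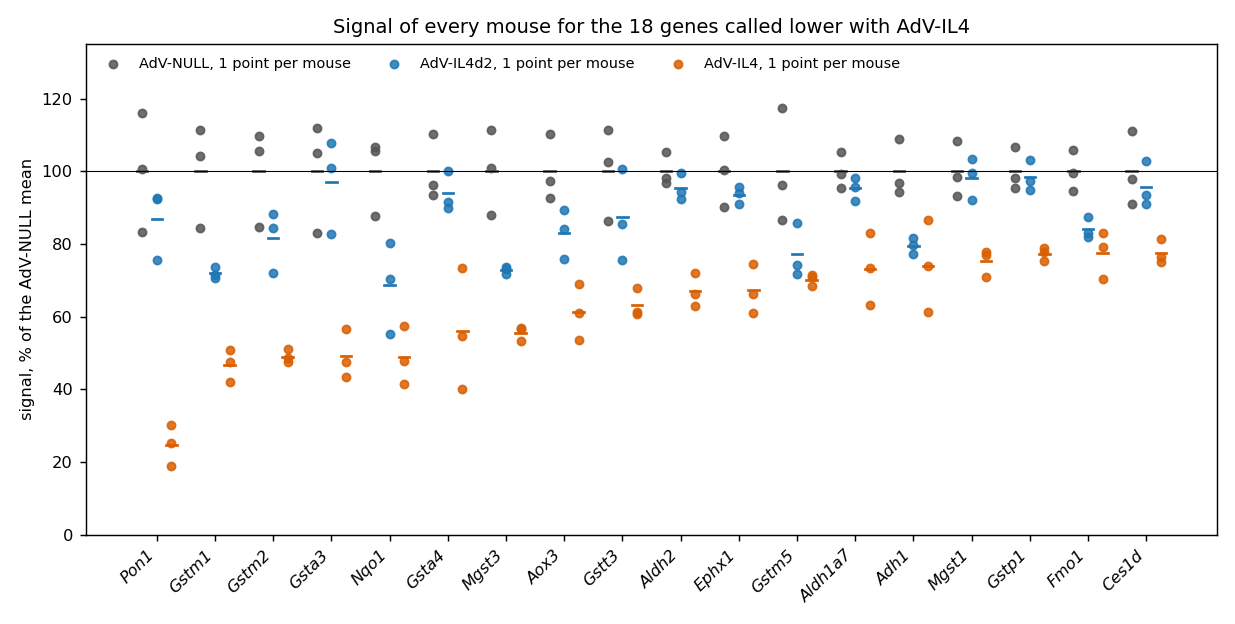
Signal of every mouse as a percentage of the control mean for the 18 genes that fell with AdV-IL4, ordered by their difference, with 1 point per mouse and a short line for the mean of each group of 3. Every IL-4 mouse lies below every control mouse for these genes, and Pon1, at the left, has the largest distance.

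The largest change was in Pon1, the paraoxonase that circulates on high-density lipoprotein and hydrolyses lactones and organophosphates. Pon1 signals were 4261, 3056 and 3692 in the control mice, 924, 691 and 1109 with AdV-IL4 and 2771, 3404 and 3391 with AdV-IL4d2. The IL-4 mice were far below both other groups, which overlapped each other. The mean fell from 3670 ± 603 to 908 ± 210 (SD, n = 3), a log2 difference of -2.01 ± 0.17 (SE), 4.02-fold lower, with an adjusted p of 2.9e-05. Against AdV-IL4d2 it was 3.52-fold lower (-1.81 ± 0.17, adjusted p 0.000374), and IL-4d2 differed from the control by -0.20 ± 0.17 (adjusted p 0.648).

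Pon1, Pon3 and Pon2 follow each other on chromosome 6 with no other protein-coding gene between them. Pon2, an intracellular family member, read 3889, 3278 and 3575 in the controls, 4213, 4421 and 3452 with AdV-IL4 and 3505, 3474 and 3488 with AdV-IL4d2. Its groups overlapped, and its difference of 0.16 ± 0.10 with IL-4 was not called (adjusted p 0.336), though with poly-A scaling it was -0.62. Pon3, also a lactonase, read 994, 991 and 1015 in the controls, 875, 780 and 1019 with AdV-IL4 and 955, 1242 and 1135 with AdV-IL4d2. Its difference of -0.17 ± 0.12 was not called either (adjusted p 0.406). All 3 tested probe sets of Pon2 gave differences between -0.05 and 0.16, and none was called.

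**Figure D3:**
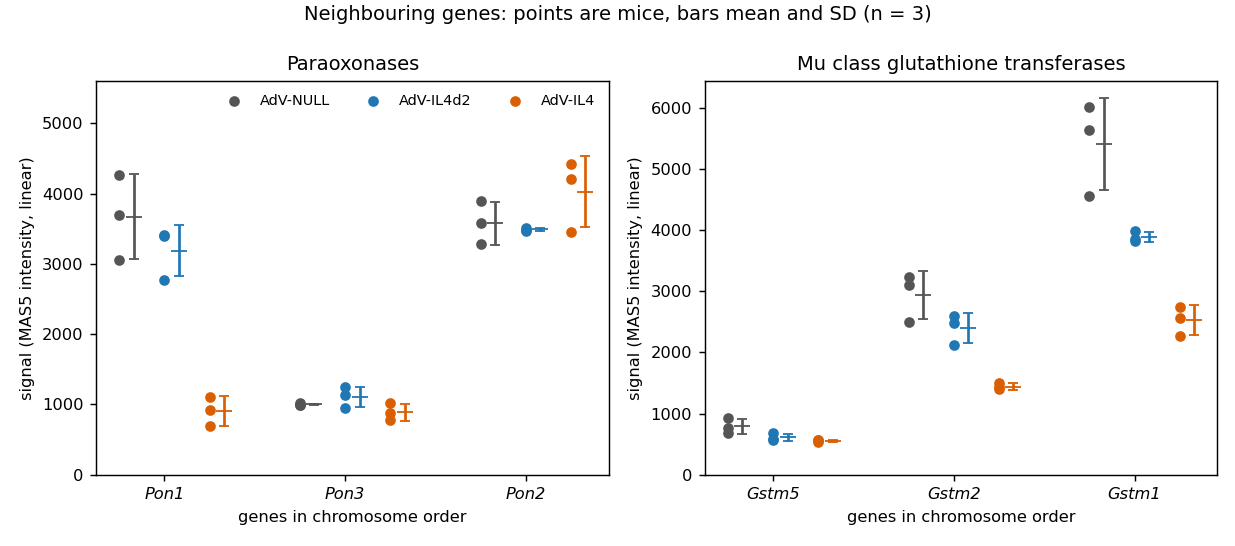
Signal (linear MAS5 intensity) of every mouse for 3 neighbouring paraoxonase genes on chromosome 6 and 3 mu class glutathione transferase genes on chromosome 3, as points with the mean and SD of each group of 3 mice. Pon1 with AdV-IL4 sits at 691 to 1109 while the other groups start at 2771, and the Pon3 and Pon2 groups overlap.

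Among the glutathione transferases 9 of 12 fell with IL-4, and the median of the 12 was -0.60. Gsta3, an alpha class enzyme known in mice for conjugating aflatoxin epoxide, read 2906, 2293 and 3097 in the controls, 1203, 1563 and 1316 with AdV-IL4 and 2289, 2789 and 2981 with AdV-IL4d2. Only the IL-4 mice stood apart, by -1.01 ± 0.14 or 2.02-fold (adjusted p 0.00105), and both tested probe sets of Gsta3 fell, the other by -0.76. Gsta4, which conjugates hydroxynonenal from lipid peroxidation, read 3408, 2978 and 2894 in the controls, 2266, 1238 and 1687 with AdV-IL4 and 2833, 2782 and 3099 with AdV-IL4d2. It fell 1.83-fold with IL-4 (-0.87 ± 0.17, adjusted p 0.00736). With IL-4d2 the differences were -0.04 ± 0.14 for Gsta3 and -0.09 ± 0.17 for Gsta4, neither of them called.

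The mu class genes Gstm5, Gstm2 and Gstm1 lie in 1 cluster on chromosome 3, Gstm2 and Gstm1 next to each other and 3 genes between Gstm5 and Gstm2. Gstm1 read 6011, 4561 and 5630 in the controls, 2743, 2265 and 2567 with AdV-IL4 and 3979, 3814 and 3856 with AdV-IL4d2, so that the IL-4d2 mice lay between the other groups without overlap. The mean fell from 5401 ± 752 to 2525 ± 242 (SD, n = 3) with IL-4, 2.12-fold (-1.09 ± 0.11, adjusted p 0.000131). Gstm2 read 3225, 2490 and 3108 in the controls, 1397, 1499 and 1426 with AdV-IL4 and 2116, 2596 and 2481 with AdV-IL4d2. It fell 2.02-fold with IL-4 (-1.01 ± 0.11, adjusted p 0.000245), and here the control and IL-4d2 mice overlapped.

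Gstm5 read 930, 762 and 687 in the controls, 567, 561 and 542 with AdV-IL4 and 569, 589 and 680 with AdV-IL4d2. Its fall with IL-4 was 1.40-fold (-0.49 ± 0.12, adjusted p 0.0280), and the call was lost without control animal 1 or 2 or any IL-4 animal, where the difference ran from -0.51 to -0.37 and the adjusted p from 0.0521 to 0.112. Of 4 tested probe sets of Gstm1, 3 fell, with differences of all 4 from -1.14 to -0.40. Mu class genes are close in sequence, and how far their probe sets read each other's transcripts was not tested, so their separate values are uncertain.

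Gstp1, the pi class enzyme, read 9537, 8517 and 8759 in the controls, 6725, 6944 and 7049 with AdV-IL4 and 8688, 9210 and 8472 with AdV-IL4d2. The IL-4 mice were closely grouped below the rest, 1.29-fold lower (-0.37 ± 0.08, adjusted p 0.0109). Gstt3, a theta class gene beside Gstt1 on chromosome 10, read 882, 683 and 814 in the controls, 487, 538 and 481 with AdV-IL4 and 799, 679 and 600 with AdV-IL4d2, and fell 1.56-fold with IL-4 (-0.64 ± 0.13, adjusted p 0.0104). Its neighbour Gstt1 read 3410, 3289 and 3494 in the controls, 2237, 3708 and 2520 with AdV-IL4 and 2610, 2715 and 3044 with AdV-IL4d2. IL-4 animal 2 was above the controls for Gstt1 and the others below, and the difference of -0.30 ± 0.15 was not called (adjusted p 0.230); without that mouse it was -0.51 (adjusted p 0.0117).

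The microsomal enzymes Mgst1, Mgst2 and Mgst3 belong to a separate family of membrane proteins with glutathione transferase or peroxidase activity. Mgst3 read 2254, 2043 and 1782 in the controls, 1079, 1145 and 1150 with AdV-IL4 and 1454, 1479 and 1490 with AdV-IL4d2, in 3 groups that did not overlap. It fell 1.78-fold with IL-4 (-0.83 ± 0.10, adjusted p 0.000322). Mgst1 read 21952, 25518 and 23175 in the controls, 18337, 16670 and 18092 with AdV-IL4 and 21667, 24307 and 23399 with AdV-IL4d2, and fell 1.33-fold with IL-4 (-0.41 ± 0.09, adjusted p 0.0119). Mgst2 was not called with IL-4 (-0.56 ± 0.18, adjusted p 0.0624), where IL-4 animal 1 read 895 and the others 500 and 578. Without IL-4 animal 1 the difference was -0.80 (adjusted p 0.00375).

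Of the aldehyde dehydrogenases 2 of 7 fell with IL-4. Aldh2, the mitochondrial enzyme that clears acetaldehyde, read 11215, 10311 and 10444 in the controls, 6716, 7684 and 7061 with AdV-IL4 and 10617, 10047 and 9830 with AdV-IL4d2. It fell 1.49-fold with IL-4 (-0.58 ± 0.08, adjusted p 0.00118), with the IL-4 mice well below both other groups. Of its 5 tested probe sets 2 fell, and the differences of all 5 were between -0.64 and -0.40. Aldh1a7, a rodent gene beside its relative Aldh1a1 on chromosome 19, read 8326, 7858 and 7543 in the controls, 6562, 4999 and 5801 with AdV-IL4 and 7270, 7564 and 7769 with AdV-IL4d2. It fell 1.37-fold with IL-4 (-0.46 ± 0.10, adjusted p 0.0126), and without control animal 1 the difference was -0.42 (adjusted p 0.0525).

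Aldh1a1, a retinaldehyde dehydrogenase, read 21661, 22249 and 20384 in the controls, 22885, 17688 and 18553 with AdV-IL4 and 21286, 24114 and 23791 with AdV-IL4d2. Its groups overlapped and its difference of -0.13 ± 0.10 with IL-4 was not called (adjusted p 0.470). Aldh3a2, the fatty aldehyde dehydrogenase beside Aldh3a1 on chromosome 11, read 991, 975 and 1123 in the controls, 889, 995 and 1024 with AdV-IL4 and 918, 991 and 988 with AdV-IL4d2. It differed by -0.09 ± 0.10 (adjusted p 0.635). The others not called, Aldh3a1, Aldh3b1 and Aldh1a2, ran from -0.97 for Aldh3a1 to 0.01 for Aldh1a2, and Aldh1a2 was at -0.76 with poly-A scaling.

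Fmo1 was the 1 flavin monooxygenase of 3 that fell, and it lies beside Fmo2 on chromosome 1. Fmo1 read 6647, 7007 and 7448 in the controls, 4957, 5830 and 5570 with AdV-IL4 and 6147, 5765 and 5832 with AdV-IL4d2, so that both cytokine groups lay below every control. The fall with IL-4 was 1.29-fold (-0.37 ± 0.08, adjusted p 0.0173), and without control animal 3 the difference was -0.33 (adjusted p 0.0674). Fmo2, known as the main lung form, read 9536, 8788 and 10058 in the controls, 8397, 9371 and 7969 with AdV-IL4 and 9630, 8356 and 8998 with AdV-IL4d2. Its difference of -0.14 ± 0.09 was not called (adjusted p 0.358), nor was any of its 5 tested probe sets, which ran from -0.49 to -0.14. Fmo5 was not called (-0.40 ± 0.15, adjusted p 0.125), and without IL-4 animal 1 its difference was -0.56 (adjusted p 0.0394).

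Ephx1, the microsomal epoxide hydrolase that acts on epoxides of foreign compounds, read 4397, 3619 and 4024 in the controls, 2446, 2988 and 2658 with AdV-IL4 and 3772, 3656 and 3836 with AdV-IL4d2. The IL-4 mice lay below all others, 1.485-fold lower than the controls (-0.57 ± 0.10, adjusted p 0.00364). Ephx2, the soluble enzyme that hydrolyses fatty acid epoxides, read 469, 254 and 279 in the controls, 152, 196 and 193 with AdV-IL4 and 251, 171 and 256 with AdV-IL4d2. The IL-4 and control mice did not overlap, and the difference of -0.79 ± 0.24 was not called (adjusted p 0.0544). Without control animal 2 it was -0.96 (adjusted p 0.0430).

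Ces1d, a carboxylesterase of the endoplasmic reticulum, read 18125, 16890 and 20609 in the controls, 15072, 13901 and 14174 with AdV-IL4 and 19047, 16874 and 17338 with AdV-IL4d2. It fell 1.285-fold with IL-4 (-0.36 ± 0.09, adjusted p 0.0268), and 2 of its 3 tested probe sets fell, with differences from -0.69 to -0.29. Its call was lost without control animal 1 or 3 or IL-4 animal 2 or 3, with differences from -0.38 to -0.28 and adjusted p from 0.0646 to 0.106. Adh1, the alcohol dehydrogenase of ethanol and retinol, read 7515, 7321 and 8433 in the controls, 4747, 6717 and 5728 with AdV-IL4 and 6185, 5980 and 6329 with AdV-IL4d2. All 6 cytokine mice lay below the controls, and the fall with IL-4 was 1.36-fold (-0.45 ± 0.11, adjusted p 0.0274). Without control animal 1 or 3 or IL-4 animal 1 or 3 the Adh1 call was lost, with differences from -0.47 to -0.32 and adjusted p from 0.0628 to 0.0948.

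Nqo1, the quinone reductase often used as a readout of Nrf2, read 322, 267 and 325 in the controls, 145, 126 and 174 with AdV-IL4 and 168, 214 and 244 with AdV-IL4d2. It fell 1.96-fold with IL-4 (-0.97 ± 0.19, adjusted p 0.00916) without overlap, at signals above the array median on 7 of the 9 arrays. Aox3, an aldehyde oxidase, read 3181, 2669 and 2805 in the controls, 1544, 1991 and 1762 with AdV-IL4 and 2185, 2581 and 2428 with AdV-IL4d2. Its 3 groups did not overlap, and it fell 1.63-fold with IL-4 (-0.71 ± 0.11, adjusted p 0.00229).

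The carbonyl reductases Cbr1 and Cbr2 were not called. Cbr2, an enzyme known from lung, read 30508, 42063 and 31362 in the controls, 38922, 32145 and 32061 with AdV-IL4 and 32812, 38171 and 33224 with AdV-IL4d2, and its mean in each group was within 0.02 of the others on the log2 scale. Cbr1 read 1341, 1129 and 1164 in the controls, 1086, 856 and 853 with AdV-IL4 and 1217, 1093 and 1215 with AdV-IL4d2. Its IL-4 mice lay below all others, by -0.38 ± 0.12 against the control (adjusted p 0.0579), and without IL-4 animal 1 the difference was -0.49 (adjusted p 0.0194).

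Over all probe sets of the 37 genes, 61 in number, 58 passed the filter. With IL-4, 23 of these fell and none rose, beside 5.08% of all tested probe sets that fell. The other 27 genes had 1 tested probe set each, and 10 had several. Sets named for shared or related targets were left out as an alternative, which kept 32 genes, of which 16 fell, beside 6.48% of all tested genes.

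With IL-4d2 1 of the 37 genes, Mgst3, fell against the control virus and none rose, beside 0.401% of all tested genes that fell and 0.859% that rose. Mgst3 was lower by -0.45 ± 0.10, 1.36-fold, with an adjusted p of 0.0438, and its 3 IL-4d2 mice, at 1454 to 1490, lay below the lowest control at 1782. This call was lost on leaving out control animal 1 or 2, IL-4 animal 2 or 3, or any IL-4d2 animal, with differences from -0.46 to -0.37 and adjusted p from 0.0552 to 0.167. Gstm1, at -0.46 ± 0.11 (adjusted p 0.0618), was called on leaving out control animal 2 (-0.58, adjusted p 0.0121) or IL-4 animal 1 (adjusted p 0.0494). Mgst2, at -0.54 ± 0.18 (adjusted p 0.179), was called on leaving out IL-4 animal 1 (adjusted p 0.0398), and its IL-4d2 mice read 647, 635 and 667 beside 1093, 875 and 896 in the controls.

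Differences of the 37 genes with IL-4d2 ran from -0.68 for Ces1f to 0.14 for Pon3, with a median of -0.19, beside 0.00 for all tested genes. At the deposited scaling 31 were below 0, whereas 20 were with scaling to hybridisation controls and 14 with scaling to poly-A controls. Relative to the median of all tested genes, 31 lay below it with each of these scalings. The members' median relative to it was -0.19 with each. The 3 IL-4d2 mice lay below the 3 controls for 12 genes, as for 11.3% of all tested genes. Besides Mgst3 these included Gstm1, Gstm5, Gstt1, Mgst2, Fmo1, Fmo5, Ces1f, Adh1, Adh7, Nqo1 and Aox3. Both cytokine groups were set against the same 3 control mice, so a control mouse that reads high lowers both differences. Control mouse 1 was the highest control for 23 of the 37 genes, and without it the median with IL-4d2 was -0.08.

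The mean with IL-4d2 lay between those of the control and IL-4, with IL-4 lowest, for 27 of the 37 genes. It was the highest of the 3 means for 6 genes and the lowest for 4. The order of the means is a description and was not tested.

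Set directly against IL-4d2, which compares the mice of these virus groups, 9 genes were lower with IL-4 and none was higher, beside 1.05% of all tested genes that were lower and 1.18% that were higher. The Il4 probe set read 301 to 379 with AdV-IL4 and 499 to 1172.5 with AdV-IL4d2. The cytokine form and this signal therefore cannot be told apart here. The median of the 37 was -0.34, beside -0.02 for all tested genes, and for 16 genes every IL-4 mouse lay below every IL-4d2 mouse, as for 13.0% of all tested genes. The 9 were Pon1, Gsta3, Gsta4, Gstm1, Gstm2, Gstp1, Mgst1, Aldh2 and Ephx1, and each of them also fell with IL-4 against the control. Gsta3 was 1.96-fold lower (-0.97 ± 0.14, adjusted p 0.00481) and Aldh2 1.42-fold lower (-0.51 ± 0.08, adjusted p 0.00898). Together with Pon1 these calls held with each single array left out. Of the tested probe sets, 1 of 2 for Gsta3 was called (differences from -0.97 to -0.57) and 1 of 5 for Aldh2 (-0.75 to -0.31). The Aldh2 call was lost with the mean of tested probe sets and with eBayes without trend.

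For the other 6 the difference between the forms was smaller or less firm. Gstm2 was 1.65-fold lower with IL-4 than with IL-4d2 (adjusted p 0.00802), Gstm1 1.54-fold (adjusted p 0.0146) and Gsta4 1.72-fold (adjusted p 0.0387). Ephx1 was 1.39-fold lower (adjusted p 0.0313), Gstp1 1.27-fold (adjusted p 0.0452) and Mgst1 1.31-fold (adjusted p 0.0482). Gstm2 was not called without IL-4d2 animal 3 (adjusted p 0.0508). Gstm1 was not called without IL-4 animal 2 or any IL-4d2 animal (adjusted p 0.0518 to 0.0679), nor Ephx1 without IL-4 animal 1 or 3 or any IL-4d2 animal (0.0697 to 0.130). Gsta4 was not called without control animal 3, IL-4 animal 2 or 3 or any IL-4d2 animal (0.0527 to 0.156). Gstp1 was not called without control animal 3, any IL-4 animal or any IL-4d2 animal (0.0685 to 0.152), and Mgst1 when any single array other than that of control animal 2 was removed (0.0502 to 0.182).

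As a count, 5 members were called without IL-4 animal 2 or 3, 4 without IL-4d2 animal 1 or 2, and 3 without IL-4d2 animal 3. Of all tested genes 1.29% and 1.82%, 1.03% and 1.08%, and 0.634% were called in the same order. Without control animal 1 and IL-4 animal 2 together, 7 were lower and Gsto1 was higher, beside 76 lower and 91 higher of all 11984 tested genes. The 9 members that fell with IL-4 against the control but were not called between the forms were Gstm5, Gstt3, Mgst3, Aldh1a7, Fmo1, Ces1d, Adh1, Nqo1 and Aox3. Their differences between the forms ran from -0.45 for Nqo1 to -0.12 for Adh1, and a missed threshold does not show that the forms acted alike. Aldh1a7 was called between the forms without IL-4 animal 1 (-0.48, adjusted p 0.0272), and so was Aldh3a1 (-1.44, adjusted p 0.0184). Another tested probe set of Ces1d, not the one that stood for the gene, was called lower with IL-4 (-0.61, adjusted p 0.00898). With sets named for shared or related targets left out, Ces1d was read by this same probe set and called between the forms.

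The 5 genes with the widest spread within groups, picked out after their values were seen, were Sult1d1, Ces1f, Gsto1, Adh7 and Aldh3a1, with SDs of 0.95, 0.63, 0.59, 0.56 and 0.50 on the log2 scale. Sult1d1, a sulfotransferase of catecholamines, read 2551, 1251 and 1438 in the controls, 1334, 180 and 936 with AdV-IL4 and 747, 1052 and 1468 with AdV-IL4d2. Ces1f, a carboxylesterase, read 510, 385 and 319 in the controls, 277, 71.9 and 248 with AdV-IL4 and 176, 259 and 311 with AdV-IL4d2. Gsto1, the omega class transferase that reduces dehydroascorbate, read 23975, 16902 and 12504 in the controls, 32277, 9320 and 21036 with AdV-IL4 and 13062, 14324 and 14799 with AdV-IL4d2. IL-4 animal 2 was the lowest of the IL-4 mice for all of them and IL-4 animal 1 the highest.

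Adh7, a retinol-oxidising alcohol dehydrogenase beside Adh1 on chromosome 3, read 721, 444 and 490 in the controls, 628, 196 and 513 with AdV-IL4 and 295, 294 and 430 with AdV-IL4d2. Aldh3a1, an aldehyde dehydrogenase known from cornea and airway, read 707, 494 and 545 in the controls, 498, 160 and 290 with AdV-IL4 and 618, 496 and 754 with AdV-IL4d2. None of these 5 was called with IL-4, at -1.41 ± 0.55 for Sult1d1, -1.13 ± 0.39 for Ces1f, 0.11 ± 0.35 for Gsto1, -0.42 ± 0.34 for Adh7 and -0.97 ± 0.30 for Aldh3a1 (adjusted p 0.129, 0.0849, 0.883, 0.481 and 0.0632). Without IL-4 animal 1 the calls of Sult1d1 (-1.96, adjusted p 0.0448), Ces1f (-1.44, adjusted p 0.0479) and Aldh3a1 (-1.35, adjusted p 0.00746) were gained. Gsto1 was at -0.68 with poly-A scaling, and rose by 0.84 (adjusted p 0.0341) without control animal 1 and IL-4 animal 2.

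In IL-4 animal 2 the ciliated markers summed to 9882, beside 14216 and 18130 in the other IL-4 mice, and the 8 club cell markers to 110894, beside 161052 and 195462. Club cell sums ran from 142987 to 204065 in the controls and from 152161 to 169643 with AdV-IL4d2. The part of these cell markers in the spread of the 5 genes was not tested. The other sulfotransferase, Sult1a1, an enzyme of phenols, was at -0.29 ± 0.18 with IL-4 (adjusted p 0.341), with signals of 2691, 2077 and 2123 in the controls, 1376, 2540 and 1843 with AdV-IL4 and 2174, 2604 and 2485 with AdV-IL4d2. For Sult1a1 IL-4 animal 2 was the highest of its group.

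**Figure D4:**
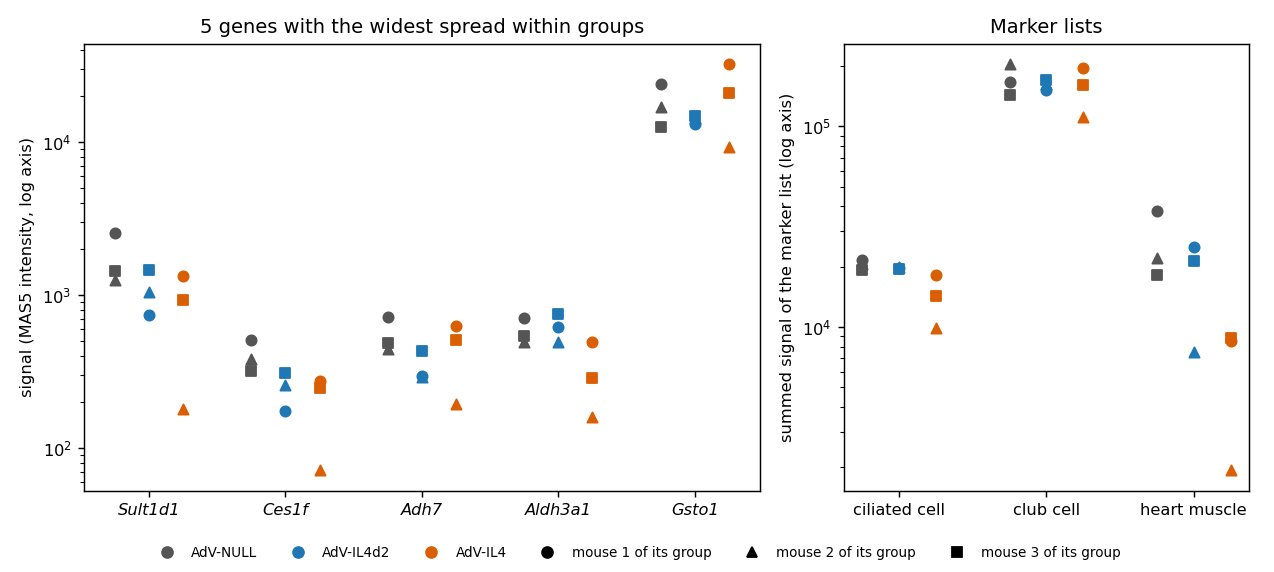
Signal of every mouse (log axis) for the 5 genes with the widest spread within groups, beside the summed signals of ciliated cell, club cell and heart muscle markers, coloured by virus and shaped by mouse number. IL-4 animal 2, the orange triangle, is the lowest IL-4 mouse in every column, from 71.9 for Ces1f to 110894 for the club cell sum.

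Markers of epithelial cell types moved in some lists and not in others with IL-4 at the deposited scaling. Of all tested genes 6.63% fell there, 34.1% with hybridisation control scaling and 78.4% with poly-A scaling. Of 8 club cell markers 1, Cldn10, fell and none rose, while 5 fell with hybridisation control scaling and 7 with poly-A scaling. Their median of -0.20 was 0.09 when control animal 1 and IL-4 animal 2 were left out. Of 7 ciliated cell markers Tppp3, Ccdc153 and Tekt4 fell and none rose, while 6 and 7 fell with these scalings and 1 without both animals. Of 8 alveolar type 1 markers 3 fell (7 and 8 with these scalings, 2 without both animals), with sums of 99870 to 119419 in the controls and 89527 to 107454 with AdV-IL4. Of 7 alveolar type 2 markers 2 rose and none without both animals, and their median of 0.28 turned to -0.16 with hybridisation control scaling and to -0.51, with 4 fallen, with poly-A scaling. Their sums were 99310 to 135054 in the controls and 135352 to 146101 with AdV-IL4. Of 7 goblet cell markers 2 rose (5 and 4 with these scalings, 3 without both animals), with sums of 3934 to 25976 and 23840 to 69718.

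Outside the epithelium all 6 tested B and plasma cell markers rose with IL-4 at the deposited scaling, 3 with either control-transcript scaling and 4 without control animal 1 and IL-4 animal 2. All 4 tested fat cell markers, 4 of 5 skeletal muscle markers and 6 of 9 heart muscle markers fell. Without both animals 1 fat, 0 skeletal and 1 heart muscle marker fell, and the skeletal muscle median went from -3.52 to -1.60. Macrophage markers gave 4 higher and 1 lower of 9 as deposited, 2 and 3 with hybridisation control scaling, 1 and 5 with poly-A scaling, and 2 and 1 without both animals. Fibroblast markers gave 2 higher and 3 lower of 10 as deposited, 1 and 5 with hybridisation control scaling and 0 and 6 with poly-A scaling. Endothelial markers gave 2 higher and 2 lower of 8 as deposited, 0 and 4, and 0 and 6 with these scalings, and 0 and 2 without both animals. Of 6 mesothelial markers 1 fell (2 and 5 with these scalings, 0 without both animals).

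With IL-4d2 the markers called at the deposited scaling were 4 of 6 B and plasma cell markers, all higher. With hybridisation control scaling 4 of 5 skeletal muscle markers also fell, and with poly-A scaling 5 of 5, beside 1 fat cell, 1 heart muscle and 1 macrophage marker with each. The goblet cell markers called higher were then 1 and 3 of 7, 1 mesothelial marker was higher with each, and 1 fibroblast marker with poly-A scaling. Set against IL-4d2 at the deposited scaling, 1 of 8 club cell and 1 of 7 ciliated cell markers were lower with IL-4 and 1 of 7 goblet cell markers was higher. No marker of alveolar type 1 or type 2 cells was called there, but with hybridisation control scaling 8 of 8 and 4 of 7 were lower, as were 5 of 8 club cell and 7 of 7 ciliated cell markers. With that scaling 52.7% of all tested genes were lower. The part of these cell types in the falls of the enzyme genes was not tested.

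Genes that supply or regulate these enzymes came from 4 lists chosen in the same way as the members. At the deposited scaling some were called higher and some lower with IL-4, beside 6.34% of all tested genes that rose and 6.63% that fell. With either control-transcript scaling none of them was called higher with IL-4 and the median of each list was below 0. Of 15 tested genes of glutathione synthesis and recycling 1 rose and 3 fell with IL-4, with a median of -0.21. Gclc, the catalytic subunit of the rate-limiting enzyme of glutathione synthesis, read 3416, 4260 and 3394 in the controls, 8363, 6096 and 6229 with AdV-IL4 and 5696, 4595 and 4974 with AdV-IL4d2. All IL-4 mice lay above all others, and the rise was 1.86-fold (0.89 ± 0.14, adjusted p 0.00193), not called with either control-transcript scaling. Gpx8, a peroxidase of the endoplasmic reticulum, fell by 0.59 (adjusted p 0.00135), Lancl1, a glutathione-binding protein, by 0.58 (adjusted p 0.0123) and Gpx2, a glutathione peroxidase of epithelia, by 0.53 (adjusted p 0.0394). The Lancl1 call was lost without control animal 1 (adjusted p 0.0546) and the Gpx2 call without control animal 1 or 2, IL-4 animal 2 or 3 or IL-4d2 animal 3 (adjusted p 0.0575 to 0.150).

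Of 19 genes of the Nrf2 pathway and other antioxidant genes 1 rose and 2 fell, with a median of 0.03. Hmox1, the haem oxygenase that Nrf2 can induce, read 401, 476 and 428 in the controls, 724, 623 and 760 with AdV-IL4 and 568, 496 and 467 with AdV-IL4d2. It rose 1.59-fold with IL-4 (0.67 ± 0.12, adjusted p 0.00590), but was at -0.10 with poly-A scaling. Cat, the catalase, fell by 0.33 (adjusted p 0.0351) and Sod1, a superoxide dismutase, by 0.28 (adjusted p 0.0288). Cat was not called without control animal 1 or 3, IL-4 animal 1 or 3 or IL-4d2 animal 1 or 3 (adjusted p 0.0508 to 0.130), nor Sod1 without control animal 1 or 3 or IL-4 animal 1 or 3 (0.0544 to 0.0817). The gene of Nrf2 itself, Nfe2l2, differed by 0.05 ± 0.08 (adjusted p 0.750), and its inhibitor Keap1 by -0.01 ± 0.12 (adjusted p 0.983).

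Of 15 xenobiotic receptors, redox partners and transporters 3 fell with IL-4 and none rose. Slco2b1, an organic anion uptake transporter, read 557, 552 and 482 in the controls, 246, 242 and 257 with AdV-IL4 and 408, 429 and 439 with AdV-IL4d2, in groups that did not overlap. It was 2.06-fold lower with IL-4 than in the controls (adjusted p 0.000283). Cyb5a, the cytochrome b5 that passes electrons to P450 enzymes, fell by 0.69 (adjusted p 0.00306), and Abcc3, an export pump for conjugates, by 0.41 (adjusted p 0.0318). The Abcc3 call was lost without control animal 1 or 3 or any IL-4 animal (adjusted p 0.0548 to 0.125). Set against IL-4d2, Slco2b1 fell by 0.74 (adjusted p 0.00909), Abcc3 by 0.64 and Cyb5a by 0.55 (adjusted p 0.0123 and 0.0324). Those 3 calls did not hold without some single arrays: IL-4d2 animal 3 for each of them, IL-4d2 animal 1 for Abcc3, and IL-4d2 animal 2 or any IL-4 animal for Cyb5a (adjusted p 0.0533 to 0.103). The receptor gene Ahr was higher with IL-4 than with IL-4d2 by 0.41 (adjusted p 0.0492), a call lost when any single array other than those of control animals 1 and 2 was removed (adjusted p 0.0545 to 0.141), and was at -0.13 with hybridisation control scaling and -0.66 with poly-A scaling.

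Of 20 glucuronidation and other conjugation genes 6 fell with IL-4 and none rose, with a median of -0.25. Ephx4, named as an epoxide hydrolase, fell by 1.04 (adjusted p 0.0217), Aldh1l1, the formyltetrahydrofolate dehydrogenase, by 0.59 (adjusted p 0.0368), Inmt, an amine methyltransferase, by 0.50 (adjusted p 0.0323) and Papss2, which makes the sulfate donor of the sulfotransferases, by 0.48 (adjusted p 0.0183). Leaving out single arrays ended each of these calls: for Papss2 control animal 2 or IL-4 animal 2 (adjusted p 0.0606), for Ephx4 any control animal or IL-4 animal 2 or 3 (0.0533 to 0.0712), for Aldh1l1 these or IL-4d2 animal 2 (0.0534 to 0.123), and for Inmt any control animal, IL-4 animal 1 or 3 or IL-4d2 animal 1 (up to 0.0891). With IL-4d2 no gene of these 4 lists was called against the control by limma, beside 1.26% of all tested genes. By limma, 11 of 69 were lower and 3 higher at an unadjusted p under 0.05. No count over all tested genes was made at that unadjusted threshold. Set against IL-4d2, Gpx8 was also lower with IL-4 (-0.50, adjusted p 0.0123; without IL-4d2 animal 1 or 3, 0.0558 and 0.0670).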

How the data were processed

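Whole-lung RNA of 9 mice, 3 for each virus, was measured. The authors deposited linear signal intensities for 45101 probe sets of each array, which were used unchanged; per the submitters' processing notes, the tools were Affymetrix Expression Console 2.0, MAS5 and GCOS, with no role given for each. From the values, the 2% trimmed mean was 500.002 as an average over the 9 arrays, while array medians ran from 156 to 171. Each array was therefore taken to have been scaled by 1 factor to a common average. A change shared by most genes is therefore not visible, and low signals are noisy. Arrays have no depth, so their number limits the precision.

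Genes came from the platform annotation: 34958 probe sets had 1 symbol, 932 several and 9211 none, and 0 sample columns were unmatched. The scale of the tests was log2(signal + 16). A probe set entered when it exceeded its array's median in 3 or more of the 9 arrays, and 64 control sets were removed, which left 23824. All 9 arrays entered 1 limma 3.58.1 fit (lmFit, contrasts.fit, eBayes with trend) in R 4.3.3 without covariates, with 6 residual degrees of freedom. Tests were two-sided, with Benjamini-Hochberg adjustment within each contrast over all tested probe sets and a threshold of 0.05; "fell", "rose" and "called" mean past it. The tested probe set with the highest mean stood for a gene. Because 16 was added, fold changes of dim genes come out too small. Errors after signals are SDs and after differences SEs. The fit was tested on simulated data.

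Mouse numbers were not used to pair the samples: deviations of same-numbered mice from their group means correlated at -0.0694 to 0.116. Between AdV-IL4 and AdV-IL4d2 these correlations were 0.0707 to 0.116, and each IL-4 mouse correlated best with the IL-4d2 mouse of its number. Against the controls, only animal 1 of each cytokine group correlated best with its own number. Whether the numbers mark a pairing was not tested. The members and lists were chosen with earlier results of these data known. Named were all called members with every value, up to 2 uncalled ones per class by mean signal, and up to 4 called genes per related list by size of difference; others named were picked after their values were seen. Alternatives changed the pseudocount, filter, scaling, block, arrays in the fit, trend, probe-set rule and arrays left out; for related-list genes and marker counts they were added after seeing the data. Promoters came from RefSeq (GRCm38.p6), and motif matches were counted by script; gene order used the same assembly. Of 37 genes, 30 had a promoter entry.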

Additional observations from a re-analysis of the deposited data

How the results depend on the processing

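Of the 18 falls with IL-4, 9 were called under all 22 alternatives (Gsta3, Gsta4, Gstm1, Gstm2, Mgst3, Aldh2, Ephx1, Pon1 and Aox3) and 13 with each single array left out, as were 2 (Gsta3 and Pon1) and 3 of the 9 between the cytokine forms. The number of members called was 14 to 22 with IL-4, 0 to 3 with IL-4d2 and 3 to 9 between the forms with single arrays left out. Of all tested genes 6.83% to 11.2%, 0.609% to 1.86% and 0.634% to 2.42% were called there. Scaling to hybridisation controls gave 33, 0 and 34 and to poly-A controls 37, 0 and 37. Genes lower and higher over the whole table with IL-4 were then 4082 and 169, and 9392 and 86, beside 794 and 760. Between the forms they were 6310 and 58, and 11429 and 23, beside 126 and 142 as deposited. No filter gave 0 with IL-4d2 and 5 between the forms, the filter on 9 of 9 arrays 2 with IL-4d2, and eBayes without trend 0 and 3. Without control animal 1 and IL-4 animal 2 together 0 were called with IL-4d2. With IL-4, poly-A scaling reversed Gsto1 to -0.68, Aldh1a2 to -0.76, Pon2 to -0.62 and Hmox1 to -0.10. Between the forms it reversed Gsto1 to -0.67, Aldh3a2 to -1.05, Pon2 to -0.87, Adh7 to -0.77 and Ahr to -0.66, and hybridisation control scaling reversed Aldh3a2 to -0.53 and Ahr to -0.13. The mouse number as a replicate block, which the main fit did not use, gave 21, 1 and 7 members called. With it Gstm1 was the member called with IL-4d2 (adjusted p 0.0313). Other sign changes among uncalled members numbered 15, 54 and 33 of 806 values in each comparison. The cause of these changes was not tested. Leaving out arrays also lowered the number of mice, and dropping the filter raised the number of probe sets tested. Nqo1, Ces1f and Ephx2 lie near the array median, where signals are noisy.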
